A study of Mus musculus with 6 samples.

Results

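The 6 genes described here are Plagl1, Utf1, Lad1, Sema7a, Bcat1 and 3110082I17Rik, of 48440 genes in the count table and 13314 that passed the filter on low counts. The 6 were chosen by their measured counts, low or silent in unstimulated mouse CD4+ T cells and strongly raised after restimulation, and for not being classic activation genes. The counts that chose them are those of this comparison, so their levels and changes are a description and carry no test. The choice set no numerical threshold. All 6 were found in the table, all 6 passed the filter, and all are protein-coding, each on a chromosome of its own.

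Primary CD4+ T cells, which help other immune cells once their receptor meets antigen, came from spleen and lymph nodes of wildtype mice. All cells had first been activated for 3 days on a plate coated with anti-CD3, which triggers the receptor complex, and anti-CD28, which supplies costimulation, and then expanded for 5 days in interleukin 2. The 3 unstimulated libraries came from cells left at rest, and the 3 stimulated libraries from cells given both antibodies again for 4 hours. The unstimulated cells are thus rested effector cells and not naive ones. The labels give no strain, age or sex and call the libraries biological replicates, without saying whether each came from its own mouse, so any p-value measures the spread between these libraries.

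Depth hardly differed, at 29897720 to 30252923 counted reads per library, and 3 reads corresponded to 0.0943 to 0.106 CPM, the normalised read count used here (counts per megaread after TMM scaling of depth). The stimulus was visible in Cd69, an early surface marker of activation, which went from 11.3 ± 1.93 to 422 ± 22.7 CPM (SD, n = 3), and in Il2, the T cell growth factor, from 0.475 ± 0.117 to 251 ± 54.0 CPM. The 7 T cell markers summed to 3784 to 3955 CPM in unstimulated and 1739 to 1798 CPM in stimulated libraries. Of other cell types, the 2 cytotoxic T cell markers summed to 20.9 to 24.8 CPM at rest and 20.7 to 25.8 CPM after stimulation, with Cd8a up and Cd8b1 down. The 6 B cell markers summed to 1402 to 2858 and 729 to 1280 CPM, nearly all of it Ighm. The 6 myeloid markers lay at 7.0 CPM or lower, the 5 dendritic cell markers at 5.72 CPM or lower with Siglech and Clec9a at 0 reads, and the 4 NK cell markers at 17.9 CPM or lower. The part of these cells in the results was not tested, and in bulk RNA fewer cells of a type and less RNA per cell cannot be told apart.

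Engagement of the T cell receptor opens calcium, kinase and NF-kB pathways that converge on the transcription factors NFAT, AP-1 and NF-kB, and with costimulation it also switches the cell from rest to growth. The 6 genes are known from other settings. Plagl1, also called Zac1, encodes a zinc finger transcription factor with antiproliferative activity and is imprinted, being expressed from the paternal allele. Utf1 encodes a chromatin-associated factor best known from embryonic stem cells, where OCT4 and SOX2 drive it. Lad1 encodes ladinin, a protein of the anchoring filaments that tie epithelia to the basement membrane. Sema7a encodes a semaphorin held to the membrane by a lipid anchor, which acts on integrin and plexin receptors of other cells. Bcat1 encodes the cytosolic aminotransferase that takes the amino group from leucine, isoleucine and valine. 3110082I17Rik is named by its RIKEN cDNA clone.

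The promoters of 4 of the genes are shown because they cover the differences found among the 6. Sequences are from the RefSeq table of GRCm38.p6, which matched all 6 genes with 7 windows of 300 bases, 250 before and 50 after each start site; Bcat1 had 2 windows, the second 27372 bases inside the gene. The start is position 0, and bases in annotated exons were left out. Plagl1 is shown at chr10:13090582-13090690 (plus strand, positions -250 to -142, before a start that lies 30328 bases inside the gene). 3110082I17Rik is shown at chr5:139460535-139460784 (minus strand, positions -250 to -1), Utf1 at chr7:139943606-139943788 (plus strand, positions -250 to -68) and Bcat1 at chr6:145076185-145076407 (minus strand, positions -250 to -28). Capitals mark matches on either strand to the E-box, which reads CACGTG, and to the GC box that binds SP-type factors, which reads GGGCGG. They also mark the box named CCAAT after its letters, on either strand, and the TATA box, searched on the given strand only as the letters TATAAA.
Plagl1: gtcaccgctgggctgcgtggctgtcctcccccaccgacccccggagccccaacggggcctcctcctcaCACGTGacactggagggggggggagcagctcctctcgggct
3110082I17Rik: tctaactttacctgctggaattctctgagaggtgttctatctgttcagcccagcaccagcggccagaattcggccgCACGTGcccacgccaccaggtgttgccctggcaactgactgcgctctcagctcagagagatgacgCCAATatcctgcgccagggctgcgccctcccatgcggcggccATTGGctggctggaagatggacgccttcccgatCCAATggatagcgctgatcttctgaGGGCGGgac
Utf1: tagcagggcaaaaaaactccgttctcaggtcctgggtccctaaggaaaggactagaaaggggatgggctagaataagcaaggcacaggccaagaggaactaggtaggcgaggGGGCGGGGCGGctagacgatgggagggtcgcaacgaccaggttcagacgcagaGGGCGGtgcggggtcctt
Bcat1: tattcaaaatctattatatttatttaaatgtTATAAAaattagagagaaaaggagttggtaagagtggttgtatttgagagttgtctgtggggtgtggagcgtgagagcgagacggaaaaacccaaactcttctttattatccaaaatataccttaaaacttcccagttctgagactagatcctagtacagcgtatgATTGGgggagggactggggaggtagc
Plagl1 and 3110082I17Rik each held 1 E-box, the palindrome that MYC-type factors can bind, at positions -182 and -174, where 7.15% of all 32851 windows hold one. Utf1 carried 4 GC boxes in its whole window, 2 of them overlapping by 1 base at -138 and -133. Plagl1 and Sema7a held 2 each and 3110082I17Rik held 1. At least 1 GC box thus stood in 4 of the 7 windows and in 35.7% of all. The first window of Bcat1 was the exception in base composition, with 41.0% G and C and 6 CpG dinucleotides. The first windows of the other 5 had 60.3% to 70.7% and 17 to 26 CpG, and the median of all windows was 52.7% and 7. The second Bcat1 window had 58.7% and 16 CpG, and which start was used was not measured. AP-1 was searched in a loose form, TGANTCA, where N is any base. Its only match among the members was TGAATCA at -24 in the first Bcat1 window, and 7.81% of windows hold a match to this loose form. The NFAT core (GGAAA) stood in 4 of the 7 windows and in 61.3% of all. Searched on both strands, the cyclic AMP element TGACGTCA, the EGR motif GCGNGGGCG, the kappaB consensus, the CArG box and the interferon-stimulated response element core had no match in the 7 windows, against 1.63% to 5.55% of all windows. A match is a string of letters and not a measured site.

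Plagl1 had the lowest resting level of the 6 (ENSMUSG00000019817, chromosome 10, 13060504 to 13131694 in GRCm38, plus strand). Its reads numbered 1, 1 and 0 in unstimulated replicates 1, 2 and 3, and 623, 581 and 423 in the stimulated ones. At rest it lay at or under 1 read per library, and after stimulation replicate 3 was the lowest, at 14.6 CPM beside 22.1 and 20.4. The ratio of summed reads over scaled depth was 900.5 (exact 95% counting interval 249 to 7442), a value that rests on 2 reads and was 598.5 (165 to 4946) without unstimulated replicate 3. Intervals here cover counting error only. Its log2 fold change of 9.56 was the second largest rise of all tested genes.

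Utf1 was the most uneven of the 6 (ENSMUSG00000047751, chromosome 7, 139943789 to 139945112, plus strand, 2 exons). It had 0, 6 and 1 reads in the unstimulated and 642, 1412 and 782 in the stimulated libraries. Replicate 2 was the highest library in both groups, at 0.190 CPM at rest and 49.6 CPM after stimulation, where replicates 1 and 3 had 22.8 and 26.9 CPM. The ratio was 448.5 (217 to 1116), and 2092 (375 to 82680) without unstimulated replicate 2, which held 6 of the 7 resting reads. The coefficient of variation over the stimulated libraries was 43.6%, where counting alone gives 3.25%. The 500 tested genes nearest in level had a median of 5.91%, and Utf1 exceeded 99.8% of them.

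Lad1 reached the highest level after stimulation (ENSMUSG00000041782, chromosome 1, 135818598 to 135833342, plus strand). It stood at 0.764, 0.853 and 0.503 CPM in the unstimulated libraries, on 67 reads in all, and at 252, 301 and 267 CPM in the stimulated ones. The groups lay far apart, with replicate 2 highest in both, and the ratio was 387 (305 to 499.7).

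Sema7a was not near silence at rest (ENSMUSG00000038264, chromosome 9, 57940112 to 57962865, plus strand). Its unstimulated libraries held 9.04, 8.69 and 7.70 CPM, on 804 reads, and its stimulated ones 241, 247 and 251.5 CPM. The stimulated values were the tightest of the 6, with a coefficient of variation of 2.08%, and the ratio of 29.1 (27.1 to 31.3) was the smallest.

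Bcat1 was low but counted at rest (ENSMUSG00000030268, chromosome 6, 144993835 to 145076184, minus strand). It had 2.64, 1.45 and 1.26 CPM in the unstimulated and 127, 138 and 120 CPM in the stimulated libraries. Unstimulated replicate 1 was the highest of its group, and the resting coefficient of variation of 42% exceeded that of 90.8% of the 500 genes of like level. The ratio was 72.0 (61.9 to 84.4), and 94.7 (76.6 to 118.5) without unstimulated replicate 1.

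3110082I17Rik was even in both groups (ENSMUSG00000053553, chromosome 5, 139359739 to 139460527, minus strand). It had 1.02, 0.980 and 1.19 CPM at rest and 58.0, 62.2 and 62.3 CPM after stimulation. Its ratio was 57.2 (47.0 to 70.3), and its coefficients of variation of 10.7% and 4.05% were below the medians of genes of like level, 23.4% and 5.54%.

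**Figure D1:**
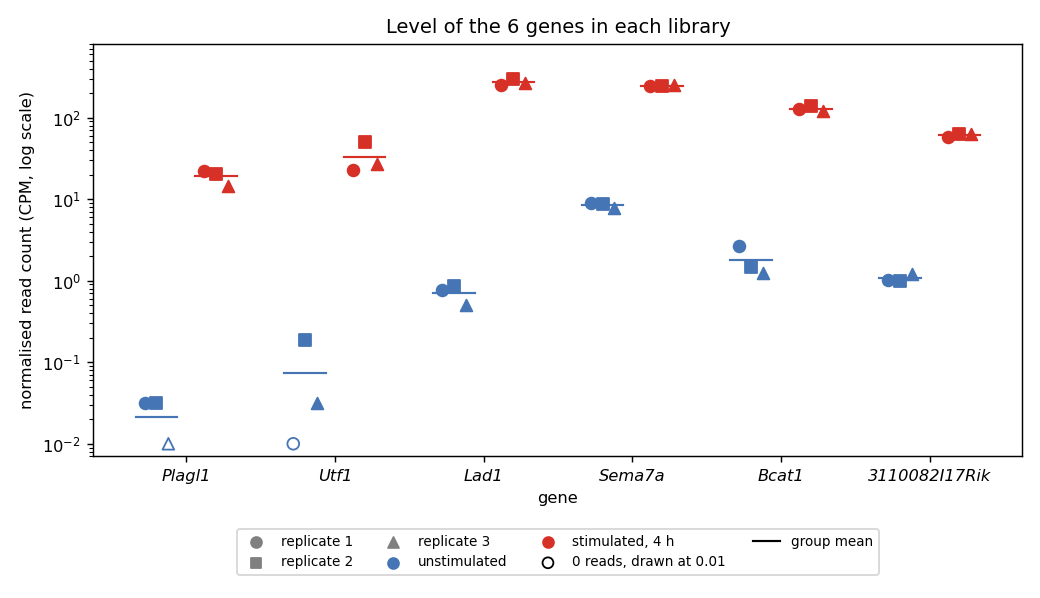
Normalised read count (CPM, log axis) of each gene in each of the 6 libraries, with symbols for the replicate number, bars for the group means and open symbols at 0.01 for libraries with 0 reads. Every stimulated value lies above every unstimulated value of the same gene, Sema7a starts highest at 8.48 CPM, and Utf1 has the widest spread after stimulation.

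The groups did not overlap for any of the 6 genes, with the stimulated libraries higher. This held for 39.4% of all tested genes, and the reverse for 40.4%, and since the genes were chosen for it nothing follows from the count. In edgeR's quasi-likelihood test 77.5% of the tested genes passed an adjusted p of 0.05. The log2 fold changes and their SE were 9.56 (0.37) for Plagl1, 8.73 (0.64) for Utf1, 8.59 (0.16) for Lad1, 6.17 (0.22) for Bcat1, 5.83 (0.11) for 3110082I17Rik and 4.86 (0.086) for Sema7a. In the order of all 13314 rises these ranked 2, 8, 9, 58, 76 and 137. Their median was 7.38, where the median of all tested genes was -0.043. The SE were derived from the F statistic of the fit. That of Plagl1 is too small for a change that rests on 2 resting reads, with a counting interval of 249 to 7442 for its ratio.

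Levels were compared between genes per length, as CPM per kilobase of annotated exon (RPKM). At rest Plagl1 was lowest at 0.00270 ± 0.00234 RPKM, followed by Utf1 (0.0601 ± 0.0828), Bcat1 (0.191 ± 0.0803), Lad1 (0.208 ± 0.0536), 3110082I17Rik (0.369 ± 0.0396) and Sema7a (2.57 ± 0.210). Mean ± SD overlapped between Plagl1 and Utf1, Utf1 and Bcat1, and Bcat1 and Lad1, and did not between Lad1, 3110082I17Rik and Sema7a. Sema7a stood at the percentile 36.7 of the tested genes at rest, and the other 5 between percentiles 0.143 and 13.5. The words near silence do not describe Sema7a. They hold best for Plagl1 and Utf1, with 2 and 7 resting reads. Lad1, Bcat1 and 3110082I17Rik were low but counted, at 0.707, 1.78 and 1.06 CPM. Per length Lad1 and Bcat1 were not apart. After stimulation the order was Plagl1 (2.43 ± 0.504), Bcat1 (13.8 ± 0.955), 3110082I17Rik (21.1 ± 0.854), Utf1 (27.0 ± 11.8), Sema7a (74.8 ± 1.56) and Lad1 (80.4 ± 7.42). Mean ± SD overlapped between 3110082I17Rik and Utf1 and between Sema7a and Lad1. Lad1 and Sema7a then stood at percentiles 95.1 and 94.7, while Plagl1, in spite of the largest ratio, reached only percentile 37.7, below the median of 4.92 RPKM.

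**Figure D2:**
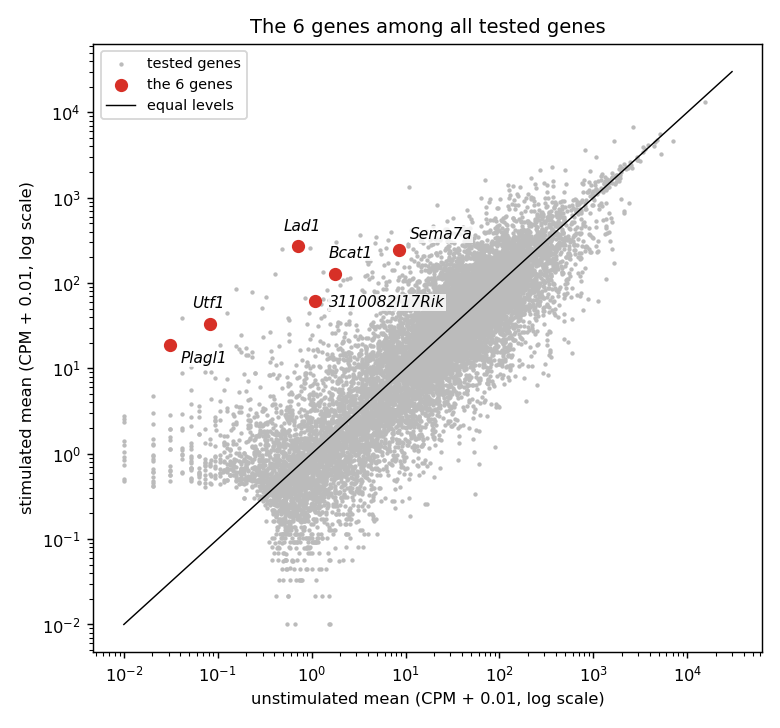
Mean level of each tested gene in unstimulated (x) and stimulated (y) libraries, in CPM plus 0.01 on log axes, with the 6 genes in red and a line of equal levels. The 6 lie above the line toward the upper edge of the cloud, from Plagl1 at 0.0211 and 19.02 CPM to Sema7a at 8.48 and 247 CPM.

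Genes that went from a mean under 1 CPM to at least 10 CPM numbered 48, or 0.361% of those tested. Plagl1, Utf1 and Lad1 were among them. 3110082I17Rik and Bcat1 lay just outside, with resting means of 1.06 and 1.78 CPM. The same group holds the cytokine and chemokine genes Il3, Il2, Ccl1 and Ifng, named here after their values were seen.

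The 3 stimulated libraries were not ordered alike across the 6 genes. Utf1, Lad1 and Bcat1 were highest in replicate 2, Plagl1 in replicate 1, and Sema7a and 3110082I17Rik in replicate 3. Among the 11261 tested genes of at least 1 CPM after stimulation, replicate 2 was the highest for 30.4%, replicate 1 for 38.1% and replicate 3 for 31.5%. The highest stimulated library exceeded the lowest 2.18-fold for Utf1, 1.51-fold for Plagl1 and 1.04- to 1.2-fold for the other 4.

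**Figure D3:**
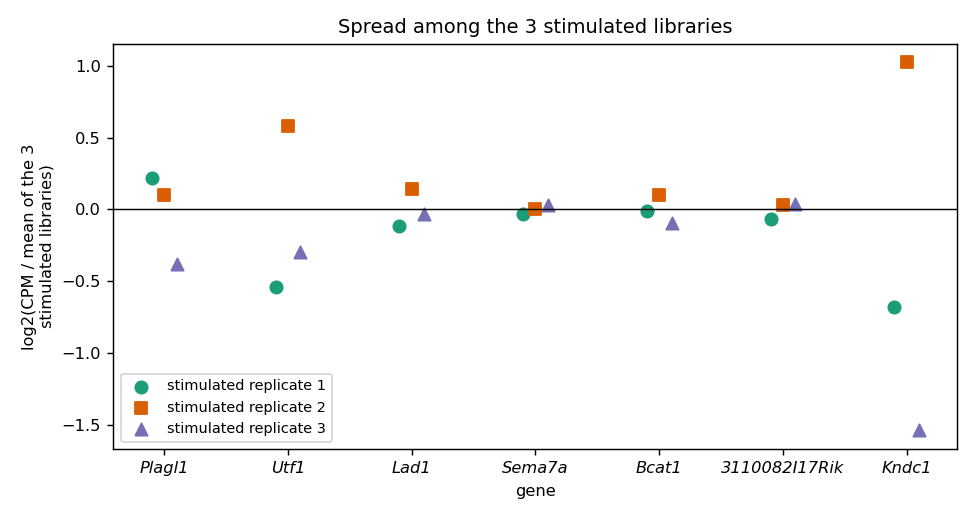
Log2 ratio of each stimulated library to the mean of the 3 stimulated libraries, for the 6 genes and for Kndc1, the gene upstream of Utf1; symbols mark the replicate number. Replicate 2 stands 0.58 above the mean for Utf1 and 1.02 above it for Kndc1, while the points of Sema7a lie within 0.032 of 0.

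For each gene the 3 tested genes with the most similar pattern were taken by Pearson correlation of log2(CPM + 0.1) over the 6 libraries. The coefficients ran from 0.9987 to 0.99999, and since every gene with a tight change between the groups correlates highly, they describe mainly that change. Nearest to Plagl1 were the ribosome-associated chaperone gene Dnajc2, the RNA helicase gene Ddx31 and the phosphatase subunit gene Ppp2r2a. Nearest to Utf1 were Trmt61b, Tefm and Abt1, of which Trmt61b and Tefm serve mitochondrial RNA. Lad1 was closest to Rptor, Pold2 and Trap1, and Sema7a to Telo2, Pim3 and Zfp598. Bcat1 was closest to the tRNA export factor gene Xpot, the RNA polymerase I subunit gene Polr1b and the noncoding RNA Snhg17, and 3110082I17Rik to the splicing factor gene Srsf7, the deubiquitylase gene Usp10 and the helicase gene Ruvbl1. These genes rose by 1.04 to 4.29 on the log2 scale, less than the genes they resemble, since the correlation ignores the size of a change.

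The surroundings of the 6 genes were examined next. Of 82 annotated genes that overlap one of them or lie within 200 kb, 40 were tested, of which 21 rose, 10 fell and 9 were not called, with a median of 0.32. Over all tested genes 38.4% rose and 39.1% fell. With library size alone 17 neighbours rose and 12 fell. Exons of 3 of the 6 genes share bases with a gene on the opposite strand, 38 with Gm27741 for Plagl1, 337 with Gm26666 for Bcat1 and 361 with C130050O18Rik for 3110082I17Rik. Gm27741 and Gm26666 had 0 reads in every library. Without the strand setting, reads in the shared bases cannot be assigned to one gene or the other.

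Around Plagl1 4 of 5 tested neighbours rose. Upstream, the splicing factor gene Sf3b5 (51.3 kb away) rose from 47.0 ± 6.54 to 91.8 ± 5.76 CPM. Downstream, the ribosome biogenesis gene Ltv1 (46.4 kb) rose from 19.8 ± 1.78 to 154 ± 10.2 CPM (2.96 on the log2 scale, SE 0.091, edgeR adjusted p = 1.11e-08).

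Beside Utf1, Kndc1, which encodes a neuronal exchange factor, ends 2.25 kb upstream on the same strand. It stood at 0.414, 0.727 and 0.251 CPM at rest and at 1.31, 4.28 and 0.724 CPM after stimulation. The groups overlapped, with stimulated replicate 3 just below unstimulated replicate 2. As for Utf1, replicate 2 was the highest library in both groups. Kndc1 passed the test (log2 fold change 2.17, SE 0.72; edgeR, adjusted p = 0.0252), but the call was lost under 5 of 12 alternatives, among them leaving out stimulated replicate 2 (1.13; adjusted p = 0.073) and unstimulated replicate 1 (adjusted p = 0.0772) or 3 (adjusted p = 0.0989), with a range of 7.62e-05 to 0.103. Downstream, the noncoding Gm16201 (5.28 kb) rose from 0.380 ± 0.0647 to 1.19 ± 0.246 CPM.

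Both nearest neighbours of Lad1 are troponin genes of striated muscle on the same strand, and both rose from almost no reads. Tnnt2, cardiac troponin T, starts 3.01 kb downstream and had 0, 1 and 1 reads at rest and 37, 49 and 47 after stimulation, a ratio of 73.6 (19.98 to 614). Tnni1, slow skeletal troponin I, ends 7.61 kb upstream and had 1, 4 and 2 and then 18, 21 and 22 reads, a ratio of 9.65 (4.41 to 25.0). In both, as in Lad1, the groups did not overlap, yet at 1.55 ± 0.213 and 0.711 ± 0.0642 CPM they stayed far below the 273 CPM of Lad1. edgeR gave adjusted p = 4.63e-06 for Tnnt2 and 0.000176 for Tnni1.

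The nearest tested neighbours of Sema7a moved less than it did. Ubl7, 10.1 kb upstream, went from 71.4 ± 2.45 to 68.5 ± 4.30 CPM and was not called (edgeR, adjusted p = 0.445; range 0.0396 to 0.924 over its alternatives), except with library size alone, where it was -0.20. The noncoding Gm17322, 35.2 kb downstream, rose from 3.19 ± 1.27 to 10.3 ± 0.538 CPM. Farther off, Stra6, a retinol transporter gene named here after its values were seen, rose from 4.602 ± 4.41 to 67.4 ± 25.8 CPM. Bcat1 had 1 tested upstream neighbour within 40 kb, Lrmp, which rose from 256 ± 21.9 to 364 ± 30.4 CPM, and none downstream.

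3110082I17Rik spans 2 other tested genes on the opposite strand. Gpr146, an orphan receptor gene, moved the other way, from 118, 110 and 105 CPM at rest to 23.9, 22.7 and 27.8 CPM after stimulation (-2.16 on the log2 scale, SE 0.094, edgeR adjusted p = 6.42e-08). C130050O18Rik, which shares exon bases with 3110082I17Rik and is uncertain for that reason, stood at 0.295 ± 0.0366 and 0.535 ± 0.115 CPM, and its call (edgeR, adjusted p = 0.0464) was lost under 10 of 12 alternatives (range 0.0409 to 0.156), including leaving out unstimulated replicate 1, 2 or 3 or stimulated replicate 2 or 3 (0.08 to 0.156). Outside it, Cox19 (8.32 kb downstream) rose by 0.36, a call lost with library size alone (edgeR, adjusted p = 0.0845; range 0.00162 to 0.0845), and Zfand2a (10.7 kb upstream) fell by 0.36.

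**Figure D4:**
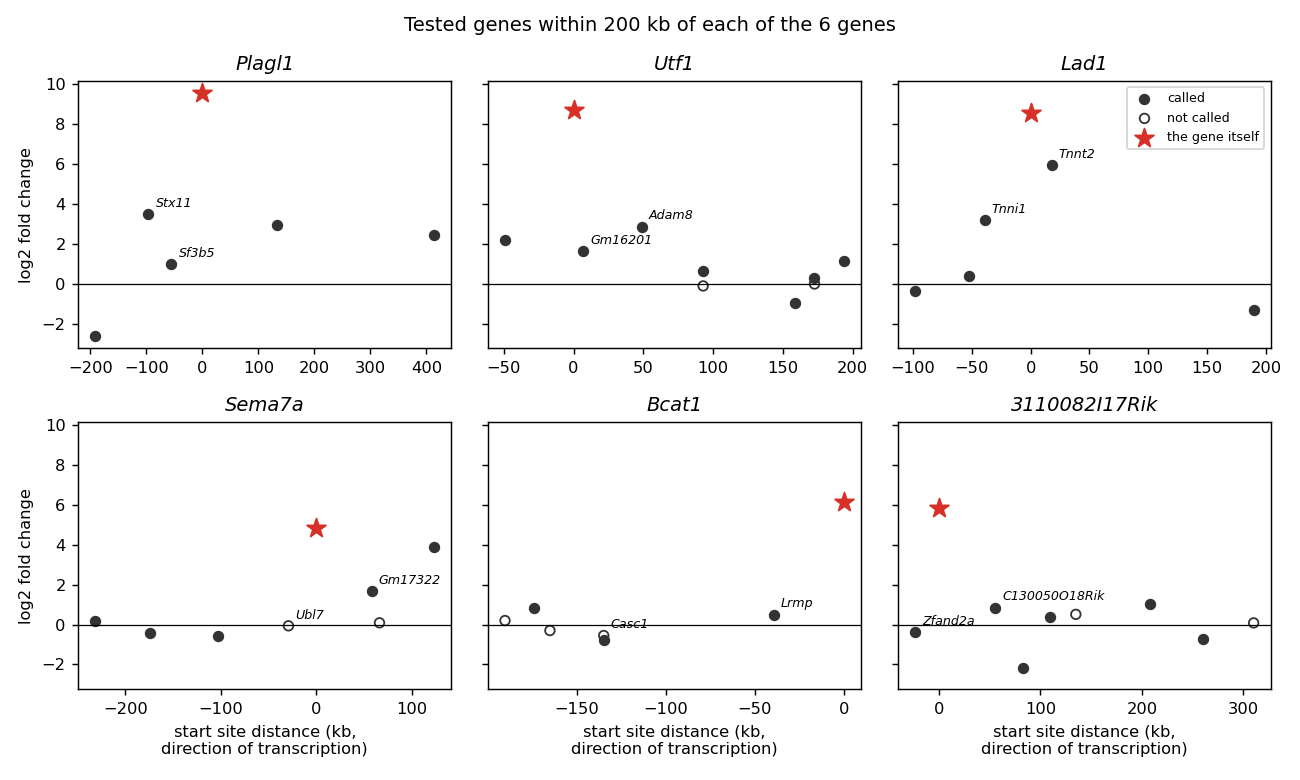
Log2 fold change of every tested gene within 200 kb against the distance of its start site from that of the gene named above each panel (kb, counted in the direction of transcription); filled points passed the test, open points did not, and the star is the gene itself, chosen for its rise. Tnnt2 and Tnni1 beside Lad1 rose, Gpr146 inside 3110082I17Rik fell, and no neighbour reached the change of the gene it lies beside.

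Genes related to 5 of the 6 were followed in 5 lists, which leave out the 6 themselves. No list was made for 3110082I17Rik. Together they held 166 genes, of which 98 were tested, 32 rose, 49 fell and 17 were not called. The calls are edgeR's, adjusted over all tested genes, and the shares over all tested genes were again 38.4% and 39.1%.

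Plagl1 belongs to a family of 3. Its relative Plagl2, which promotes growth, rose from 123, 89.8 and 71.3 CPM to 459, 409 and 355 CPM (2.11 on the log2 scale, SE 0.20, edgeR adjusted p = 3.42e-05), while Plag1 fell from 1.34 ± 0.243 to 0.362 ± 0.226 CPM (edgeR, adjusted p = 0.0039). Of the 40 genes in the list of relatives and imprinted genes, 19 were tested, 5 rose and 10 fell, with a median of -0.28. Kcnq1ot1, an imprinted antisense RNA, rose from 3.34 ± 0.313 to 7.497 ± 0.857 CPM, and Mcts2, a retrogene whose reads its parent may share, by 1.54. Among the falls were Peg13 (8.99 ± 0.425 to 3.27 ± 0.108 CPM), its host Trappc9 (37.6 ± 2.41 to 19.8 ± 1.06 CPM) and Zrsr1, another retrogene (-1.27). Imprinted genes that PLAGL1 is known to regulate, named here after their values were seen, split: Cdkn1c, a cell cycle inhibitor, fell from 2.25 ± 0.0668 to 0.686 ± 0.242 CPM. Igf2, a growth factor, had 17 resting and 58 stimulated reads and rose (edgeR, adjusted p = 0.00208), and H19 had 1 read in unstimulated replicate 1 and 1 in stimulated replicate 1.

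Most genes of the network Utf1 is known from were too low to test. Of 29 pluripotency genes 8 were tested, of which 3 rose and 3 fell, and 10 had no read in any library. The defining markers Nanog and Zfp42 were at 0 reads, Pou5f1 (OCT4) had 6 unstimulated and 1 stimulated reads, and Sox2 had 10 and 8, so the 4 markers summed to at most 0.251 CPM. The genes that rose were Myc, from 167 ± 25.5 to 1340.0 ± 23.5 CPM, Klf4, from 0.559 ± 0.164 to 2.75 ± 0.918 CPM, and the RNA-binding ubiquitin ligase gene Trim71, which had 0, 1 and 1 reads at rest and 30, 44 and 50 after stimulation (ratio 68.6, 18.6 to 573). Klf2, which also keeps T cells quiescent, fell from 329 ± 15.3 to 8.43 ± 0.378 CPM, Esrrb from 3.14 ± 0.596 to 0.211 ± 0.124 CPM and the demethylase gene Tet1 from 15.0 ± 2.88 to 2.06 ± 0.783 CPM.

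For Lad1 the list held 33 genes of anchoring filaments, basement membrane and epithelia. Of 19 tested, 7 rose and 9 fell, with a median of -0.70 (6 and 9 with library size alone). Its structural partners Col17a1, Lama3 and Itgb4, named here after their values were seen, were too low to test. Other anchoring filament and basement membrane genes of the list were among the 19 tested. The adhesion molecule Epcam rose from 1.75 ± 0.155 to 25.9 ± 5.89 CPM and Perp from 0.832 ± 0.0321 to 6.80 ± 1.26 CPM. Integrin alpha 6, from Itga6, fell from 126 ± 16.9 to 17.9 ± 2.34 CPM, and the desmosomal genes Pkp3 and Jup from 90.6 ± 5.97 to 34.4 ± 2.80 and from 2.71 ± 0.448 to 0.303 ± 0.0546 CPM. The 6 epithelial markers summed to 2.29 to 2.80 CPM at rest and 21.2 to 33.4 CPM after stimulation. Epcam gave 1.58 to 1.89 CPM of this at rest and 20.6 to 32.2 CPM after stimulation. Krt14 was at 0 reads and Krt5 had 1 read over the 6 libraries together. Krt18 fell, with 0.414 to 0.911 CPM at rest and at most 0.207 CPM after stimulation.

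The semaphorin list divided evenly, 10 up and 9 down of 23 tested, or 9 and 10 with library size alone. Of the receptors of SEMA7A, the integrin chain Itgb1 rose from 203 ± 35.0 to 422 ± 21.8 CPM (1.06 on the log2 scale, SE 0.12, edgeR adjusted p = 4.29e-05). Its partner Itga1 was too low to test, with 8, 2 and 8 reads at rest and 0, 0 and 2 after stimulation. The plexin gene Plxnc1 went from 33.9 ± 3.09 to 30.2 ± 2.53 CPM and was not called (-0.17; edgeR, adjusted p = 0.139, range 0.012 to 0.406), but was with library size alone (-0.31). Among the other family members Sema4b rose from 33.1 ± 3.83 to 87.4 ± 5.70 CPM and the receptor Plxna1 from 15.6 ± 2.75 to 74.7 ± 1.54 CPM. Sema4f fell from 66.1 ± 6.58 to 13.5 ± 2.71 CPM and Sema6c from 2.73 ± 0.314 to 0.608 ± 0.108 CPM. Cd72, whose product binds SEMA4D on B cells, fell from 7.01 ± 0.911 to 1.99 ± 0.528 CPM. Of the 6 B cell markers 5 fell as well, and fewer B cells and less RNA per cell cannot be told apart.

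Among the genes of branched-chain amino acid uptake and breakdown, the pathway of Bcat1, falls outnumbered rises. All 29 listed genes were tested, 7 rose and 18 fell, with a median of -0.83 (6 and 19 with library size alone). The transporter subunits Slc7a5 and Slc3a2, which import leucine, both rose, the first from 41.2 ± 7.55 to 453 ± 29.6 CPM and the second from 62.3 ± 2.70 to 285 ± 3.61 CPM. Another transporter gene of branched-chain amino acids, Slc43a2, fell from 74.4 ± 7.35 to 6.82 ± 0.791 CPM, so the uptake genes did not move together. Bcat2, the mitochondrial counterpart of Bcat1, fell from 103, 110 and 120 CPM to 37.4, 37.9 and 39.9 CPM (-1.54 on the log2 scale, SE 0.076, edgeR adjusted p = 1.5e-07). Further down the pathway, the leucine breakdown enzyme gene Ivd fell from 42.5 ± 6.56 to 7.56 ± 0.285 CPM. Dld, a subunit that several dehydrogenase complexes share, rose by 0.51.

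**Figure D5:**
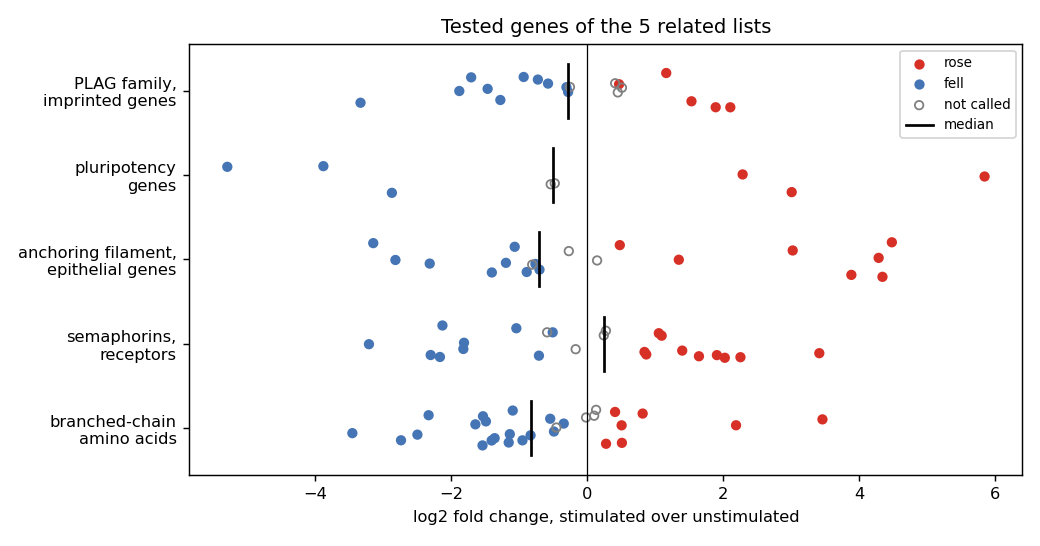
Log2 fold change of every tested gene of the 5 lists, 1 row per list, coloured by whether it rose, fell or was not called, with a bar at the median. Every list holds genes on both sides of 0, and the branched-chain amino acid list has the lowest median, -0.83.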

How the data were processed

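Gene counts of 6 RNA libraries were analysed, 3 unstimulated and 3 stimulated, grouped by their labels. The authors deposited raw counts of reads per Ensembl gene as 1 table. The tools listed per the submitters' processing notes are DESeq2, HTSeq and STAR 2.5.2a, and the build GRCm38, with no role stated. Annotation release, strand setting and read filters: not given in the sources used here. Without the strand setting, reads of a gene and its antisense partner cannot be told apart. Names, exons and coordinates are from GENCODE M21, which matched 48058 of 48440 identifiers; promoters are from RefSeq.

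edgeR 4.0.16 (R 4.3.3) was run with TMM scaling, filterByExpr, robust dispersions and the quasi-likelihood test on group, two-sided, Benjamini-Hochberg adjusted over 13314 genes, threshold 0.05. SE came from the change and its F statistic. Ratios compare summed counts over TMM-scaled depth with exact conditional 95% intervals. Within groups, pairs of libraries differed beyond counting noise (dispersion index 9.48 to 38.3, where counting gives about 1). The pipeline was tested on simulated data. Alternatives were RLE (edgeR) scaling, library size alone, no filter, 1 CPM in 3 libraries, DESeq2 1.42.0, limma-voom 3.58.1, a replicate block and leaving out each library. Tables were handled in Python 3.11.15.

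The members and lists were chosen with earlier results of these data known. The genes named follow a rule: the 6, the 3 smallest p in each direction per list, nearest relatives and receptors, the nearest tested neighbours, and the 3 most similar patterns; others are marked where named. 1 gene that the rule names is not reported here.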

Additional observations from a re-analysis of the deposited data

How the results depend on the processing

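The 6 genes were chosen for their rise in these libraries, so their rise under every alternative carries no support. Their median log2 change of 7.38 was 7.24 with library size alone and 7.16 to 7.42 when single libraries were left out. Scaling by library size alone also moved the median of all tested genes by -0.14, the largest shift by scaling. The single changes depend most on resting reads: Utf1 was 10.7 without unstimulated replicate 2, and Plagl1 9.04 without unstimulated replicate 3 and 9.15 with limma-voom. Counts of called genes stayed within 1.5 times under all 13 alternatives: 4563 to 5405 genes rose and 4829 to 5818 fell, 26 to 34 and 44 to 51 of the related genes, and 16 to 22 and 10 to 12 of the neighbours. With the replicate number as a block (replicate block), 5326 rose and 5516 fell. The labels do not say that a number pairs libraries, and the correlation of deviations between same-numbered libraries was 0.361, 0.0845 and 0.38, each the highest for its libraries. Under the block Plxnc1 passed the test (adjusted p = 0.0465) and C130050O18Rik did not (0.0769). Depth limits the resting levels of Plagl1 and Utf1, whose 2 and 7 reads set their ratios. 3 libraries a group limit every SD.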
